A study of Rattus norvegicus with 70 samples.

Results

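Oxidative phosphorylation is carried out in the inner mitochondrial membrane by 5 protein complexes, and the genes followed here encode the subunits that the nucleus supplies. Members were every gene whose symbol begins with Ndufa, Ndufb, Ndufc, Ndufs or Ndufv and a number, is Sdha, Sdhb, Sdhc or Sdhd, begins with Uqcr, begins with Cox and a number from 4 to 8, or begins with Atp5. The assembly factors named Ndufaf were left out. The rule found 80 of the 17048 genes listed, with 33 members in complex I, 4 in complex II, 8 in complex III, 18 in complex IV and 15 in complex V. The other 2, Atp5s and Atp5sl, carry an Atp5 symbol but do not encode synthase subunits. No gene named Cox6b1, Cox7a1, Cox7b2 or Ndufab1 and no subunit encoded by mitochondrial DNA was analysed here.

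Counts came from the liver, kidney and thyroid of both sexes and from testis and ovary, taken on postnatal day 63 from rats of the outbred Sprague-Dawley strain. Dams received vehicle, bisphenol A (BPA) or a mixture (Mix) by mouth from day 6 of gestation to day 6 of lactation, and the pups themselves were dosed from postnatal day 7 to day 63. BPA and Mix were each given at 500 mg/kg/day to dams and 250 mg/kg/day to pups, and the dams' Mix held BPA at 160, bisphenol F at 160 and bisphenol S at 180 mg/kg/day. There were 3 libraries for each organ, sex and treatment, apart from female kidney, where 2 vehicle and 2 BPA libraries stood beside 3 with Mix. Litters were reduced to 3 pups of each sex per dam, and the labels do not give the dam, so a shared litter and a shared treatment cannot be told apart, and p-values treat every rat as independent. Libraries held 4803807 to 10929957 counts. Each organ carried its own markers: in vehicle libraries the 7 liver markers summed to 112206 to 144284 CPM in male and 125197 to 143526 CPM in female liver, the 7 kidney markers to 12622 to 14371 and 10705 to 10727 CPM in kidney, the 7 thyroid follicle markers to 72676 to 107265 and 30174 to 52512 CPM in thyroid, the 8 testis germ cell markers to 53764 to 55798 CPM in testis, and the 7 ovary markers in the table to 1462 to 1851 CPM in ovary. Levels below are CPM (counts divided by library size and put on a common scale), with library sizes adjusted by the trimmed mean of M-values (TMM) within each fit; they are not divided by transcript length, so values of different genes are not compared as levels.

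Complex I passes electrons from NADH to ubiquinone and complex II passes them on from succinate, complex III hands them to cytochrome c, and complex IV reduces oxygen. Complexes I, III and IV pump protons, and complex V, the ATP synthase, uses the proton gradient to make ATP. Complex II is wholly encoded in the nucleus, while the others combine subunits from both genomes. Several complex IV subunits exist as paralogous forms with restricted expression, among them Cox6b2 and Cox8c in testis, Cox6a2 in heart and skeletal muscle, and Cox8b in muscle and brown fat.

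Nuclear respiratory factor 1 (NRF1), ETS-family factors such as GABPA, and YY1 are known regulators of this gene set, so the promoters of the members were searched for 3 letter strings. These were GCATGCGC for NRF1, CCGGAAG for ETS factors and AAGATGGC for YY1, on both strands. RefSeq promoters (GRCr8, 300 bases each) were matched for 68 of the 80 members, and were compared with 19005 promoters of protein-coding genes of the same length. The NRF1 string was in 9 members' promoters (13.2%) against 3.23% of all promoters. The ETS string was in 19 (27.9%) against 11.2%, and the YY1 string was in 15 (22.1%) against 3.92%. At least 1 of the 3 was found in 32 (47.1%) against 16.8%, and matches of different strings overlapped in 0 members. Of the 23 members with a promoter that fell in treated ovaries (below), 4 held the NRF1 string, 7 the ETS string and 6 the YY1 string, and of the other 45 members 5, 12 and 9 did. A match describes letters only and does not show binding.

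The 5 promoters below are shown because Atp5i and Atp5o hold the NRF1 string on both strands, Cox4i1 and Ndufs8 hold the ETS string, all 4 fell in treated ovaries, and Cox8c is the testis form of a complex IV subunit. Each runs 5′ to 3′ on the strand of its gene from 250 bases before to 50 bases after the start site, and capitals mark the matched strings.
Atp5i, chr14:1464610-1464909, plus strand: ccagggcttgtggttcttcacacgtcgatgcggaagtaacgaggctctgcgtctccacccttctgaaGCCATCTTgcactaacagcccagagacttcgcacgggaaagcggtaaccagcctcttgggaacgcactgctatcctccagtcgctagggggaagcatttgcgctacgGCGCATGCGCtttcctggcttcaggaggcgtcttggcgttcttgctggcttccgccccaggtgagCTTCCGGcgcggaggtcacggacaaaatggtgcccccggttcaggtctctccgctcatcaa
Atp5o, chr11:44657434-44657733, minus strand: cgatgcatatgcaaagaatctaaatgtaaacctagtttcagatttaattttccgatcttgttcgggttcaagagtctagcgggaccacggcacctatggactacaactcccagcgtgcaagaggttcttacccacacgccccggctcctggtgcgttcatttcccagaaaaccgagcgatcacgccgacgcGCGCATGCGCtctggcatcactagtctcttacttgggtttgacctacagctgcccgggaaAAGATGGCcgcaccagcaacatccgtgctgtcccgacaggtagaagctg
Cox4i1, chr19:65630133-65630432, plus strand: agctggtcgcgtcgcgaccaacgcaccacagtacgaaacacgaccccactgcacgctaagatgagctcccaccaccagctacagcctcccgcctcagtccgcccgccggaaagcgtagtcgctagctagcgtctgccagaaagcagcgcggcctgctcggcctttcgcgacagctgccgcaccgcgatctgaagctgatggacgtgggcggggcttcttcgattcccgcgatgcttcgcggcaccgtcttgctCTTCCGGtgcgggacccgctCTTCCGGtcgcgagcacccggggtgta
Ndufs8, chr1:210573649-210573948, minus strand: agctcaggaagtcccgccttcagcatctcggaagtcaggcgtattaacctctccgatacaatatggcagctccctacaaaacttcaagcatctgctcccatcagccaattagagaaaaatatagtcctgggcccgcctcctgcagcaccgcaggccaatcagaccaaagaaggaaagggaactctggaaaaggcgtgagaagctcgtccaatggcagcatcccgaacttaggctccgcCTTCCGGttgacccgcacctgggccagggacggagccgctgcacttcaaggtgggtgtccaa
Cox8c, chr6:127793129-127793428, plus strand: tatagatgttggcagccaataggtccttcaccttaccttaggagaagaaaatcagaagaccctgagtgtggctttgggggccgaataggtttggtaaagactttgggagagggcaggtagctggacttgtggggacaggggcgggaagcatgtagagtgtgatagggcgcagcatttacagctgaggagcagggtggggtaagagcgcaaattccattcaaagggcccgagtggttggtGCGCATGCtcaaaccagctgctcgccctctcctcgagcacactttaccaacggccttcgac
In Atp5i the strings began at position -183 (YY1), -76 and -74 (NRF1) and -11 (ETS) from the start site. In Atp5o they began at -59 and -57 (NRF1) and 2 (YY1), in Cox4i1 at 4 and 24 (ETS), in Ndufs8 at -12 (ETS) and in Cox8c at -11 (NRF1).

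Of the 8 combinations of organ and sex, the ovary was the only one in which members passed the test against vehicle, and there members of complexes I, III, IV and V were lower. Whether the ovary differed from the other organs in this was not tested. With BPA, 18 of 77 members tested fell and 0 rose (23.4% fell, against 3.88% of the 10871 genes tested, of which 6.79% changed in either direction). With Mix, 25 of 77 fell and 0 rose (32.5% fell, against 4.99% of all genes tested, of which 9.12% changed in either direction). The median log2 fold change of the 77 members was -0.43 with BPA and -0.41 with Mix, against 0.01 and 0.01 over all genes tested. Both comparisons use the same 3 vehicle libraries. A change here means an adjusted p below 0.05 in edgeR's quasi-likelihood test, adjusted over all genes tested.

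The summed level of all members was 24401, 28482 and 31139 CPM in the vehicle ovaries, 18151, 21450.1 and 19901 CPM with BPA and 17124, 22814 and 19322 CPM with Mix. Every treated ovary lay below every vehicle ovary. The treated means were 70.8% ± 5.89 (SD, n = 3) and 70.5% ± 10.2 (SD, n = 3) of the vehicle mean. In tissue RNA, fewer cells of a type and less RNA per cell cannot be told apart.

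**Figure D1:**
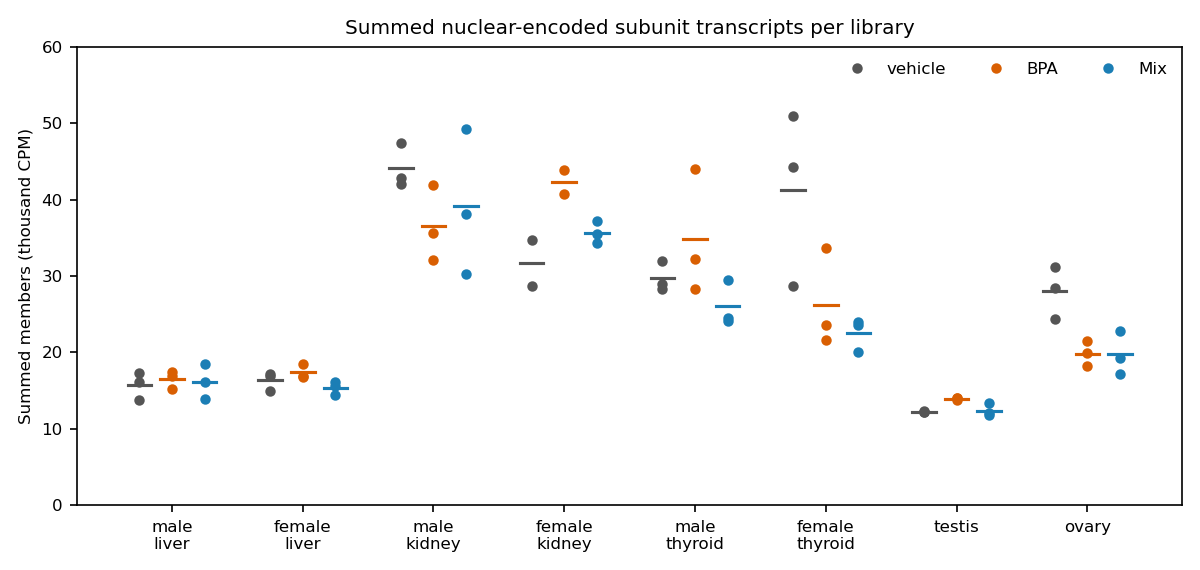
Summed CPM of all members (y axis, in units of 1000 CPM, starting at 0) in each library, by organ and sex (x axis) and treatment (colour); points are libraries and bars are group means. In the ovary all treated libraries lie below all vehicle libraries, and in testis the 3 BPA libraries lie above the vehicle libraries.

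Within complex I, 9 of 33 members fell with BPA and 12 with Mix, and the medians were -0.46 and -0.44. Ndufa2, an accessory subunit of the matrix arm, was at 403, 573 and 624 CPM in vehicle ovaries, 253, 299 and 286 CPM with BPA and 193, 258 and 261 CPM with Mix. It had a log2 fold change of -0.93 ± 0.18 (SE) with BPA (adjusted p = 0.0129) and of -1.17 ± 0.18 with Mix (adjusted p = 0.00397). All treated libraries of Ndufa2 lay below the lowest vehicle library. Ndufb6, an accessory subunit of the membrane arm, was at 108, 117 and 131 CPM in vehicle ovaries, 54.6, 60.8 and 64.2 CPM with BPA and 62.3, 70.6 and 64.7 CPM with Mix. Ndufb6 had a log2 fold change of -0.99 ± 0.14 (SE) with BPA (adjusted p = 0.00182) and of -0.85 ± 0.14 with Mix (adjusted p = 0.00423). The highest treated ovary was well under the lowest vehicle ovary.

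Ndufs5, an accessory subunit on the intermembrane-space side, was at 129, 147 and 194 CPM in vehicle ovaries, 75.9, 84.7 and 78.3 CPM with BPA and 79.6, 109 and 95 CPM with Mix. Ndufs5 had a log2 fold change of -0.98 ± 0.17 (SE) with BPA (adjusted p = 0.00757) and of -0.73 ± 0.17 with Mix (adjusted p = 0.0204). Its vehicle libraries were all above the 6 treated libraries. Ndufa12, an accessory subunit of the matrix arm, was at 189, 232 and 185 CPM in vehicle ovaries, 126.2, 108 and 89.0 CPM with BPA and 109, 131 and 110.6 CPM with Mix. Ndufa12 had a log2 fold change of -0.90 ± 0.16 (SE) with BPA (adjusted p = 0.00775) and of -0.79 ± 0.16 with Mix (adjusted p = 0.0123). No treated library reached the vehicle range.

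Ndufs8, a core subunit that carries iron-sulfur clusters and whose promoter is printed above, was at 115, 153 and 154 CPM in vehicle ovaries, 82.3, 81.4 and 75.5 CPM with BPA and 73.5, 86.2 and 75.4 CPM with Mix. Ndufs8 had a log2 fold change of -0.82 ± 0.15 (SE) with BPA (adjusted p = 0.00832) and of -0.84 ± 0.15 with Mix (adjusted p = 0.00652). Ndufb2, a small membrane-arm subunit, was at 188, 221 and 321 CPM in vehicle ovaries, 130.2, 178 and 148 CPM with BPA and 119, 145 and 126.6 CPM with Mix. Ndufb2 had a log2 fold change of -0.68 ± 0.19 (SE) with BPA (adjusted p = 0.0561) and of -0.90 ± 0.20 with Mix (adjusted p = 0.0156), so that it passed the test with Mix alone while its treated libraries lay below the vehicle libraries under either agent. The remaining complex I members that fell with BPA were Ndufa5, Ndufb9, Ndufb11 and Ndufv3, at log2 fold changes from -0.81 (Ndufb9) to -0.53 (Ndufv3). With Mix the remaining ones were those 4, Ndufb5 and Ndufb8, from -0.83 (Ndufa5) to -0.54 (Ndufb5). Other complex I members were not low: the core subunit Ndufv1, which binds NADH, was at 182, 161 and 165 CPM in vehicle ovaries, 142, 170.3 and 169.6 CPM with BPA and 164, 163 and 161 CPM with Mix, with overlapping groups. Ndufs1, the largest iron-sulfur subunit, had a log2 fold change of -0.04 ± 0.25 (SE) with BPA (adjusted p = 0.953) and of 0.40 ± 0.25 with Mix (adjusted p = 0.345).

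In complex II no member passed. Its 4 subunits had medians of -0.02 with BPA and 0.13 with Mix, and 0 of 4 passed the test in either comparison. Sdha, the flavoprotein that oxidises succinate, was at 150.2, 87.1 and 124 CPM in vehicle ovaries, 108, 136 and 142 CPM with BPA and 169, 149 and 160.1 CPM with Mix. Sdha had a log2 fold change of 0.09 ± 0.19 (SE) with BPA (adjusted p = 0.822) and of 0.40 ± 0.19 with Mix (adjusted p = 0.198). The treated libraries reached from inside the vehicle range to above it. Sdhb, the iron-sulfur subunit, was at 270.0, 289 and 276 CPM in vehicle ovaries, 262, 291 and 264 CPM with BPA and 240.4, 438 and 286 CPM with Mix, and its groups overlapped. The difference between complex II and the other complexes was not tested.

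In complex III, 2 of 8 members fell with BPA and 3 with Mix, with medians of -0.53 and -0.39. Uqcrq, a small accessory subunit of the cytochrome bc1 complex, was at 512, 705 and 762 CPM in vehicle ovaries, 362, 389.7 and 322 CPM with BPA and 288, 420.1 and 338 CPM with Mix. Uqcrq had a log2 fold change of -0.88 ± 0.18 (SE) with BPA (adjusted p = 0.016) and of -0.92 ± 0.18 with Mix (adjusted p = 0.0116). Uqcr10, another small accessory subunit, was at 386, 527 and 533 CPM in vehicle ovaries, 252, 274 and 266 CPM with BPA and 210.5, 296 and 251 CPM with Mix. Uqcr10 had a log2 fold change of -0.87 ± 0.17 (SE) with BPA (adjusted p = 0.0118) and of -0.93 ± 0.17 with Mix (adjusted p = 0.00753). For both genes the 6 treated ovaries lay below the 3 vehicle ovaries. The core protein Uqcrc1 was at 240.5, 288 and 211 CPM in vehicle ovaries, 177, 177 and 169 CPM with BPA and 141, 172 and 133 CPM with Mix. Uqcrc1 had a log2 fold change of -0.50 ± 0.15 (SE) with BPA (adjusted p = 0.0679) and of -0.73 ± 0.15 with Mix (adjusted p = 0.0139). By contrast Uqcrc2, the partner core protein, was at 179.7, 137 and 171 CPM in vehicle ovaries, 135, 172 and 169.9 CPM with BPA and 132, 172 and 161 CPM with Mix and overlapped between groups.

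In complex IV, 2 of 15 members tested fell with BPA and 4 with Mix, with medians of -0.42 and -0.45. Cox4i1, the widely expressed form of the subunit that binds regulatory nucleotides, was at 379, 445 and 431 CPM in vehicle ovaries, 225, 239 and 242 CPM with BPA and 164, 278 and 200.4 CPM with Mix. Cox4i1 had a log2 fold change of -0.83 ± 0.18 (SE) with BPA (adjusted p = 0.0181) and of -0.97 ± 0.18 with Mix (adjusted p = 0.00825). Its treated libraries were all below the vehicle libraries. Its paralog Cox4i2, a form known from lung and linked to oxygen sensing, was at 11.5, 22.8 and 17.95 CPM in vehicle ovaries, 10.2, 14.2 and 16.1 CPM with BPA and 29.5, 16.0 and 19.2 CPM with Mix and overlapped.

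Cox6c, a small membrane subunit, was at 533, 765 and 949.6 CPM in vehicle ovaries, 336, 476 and 483 CPM with BPA and 294, 466 and 410.3 CPM with Mix. Cox6c had a log2 fold change of -0.80 ± 0.23 (SE) with BPA (adjusted p = 0.0583) and of -0.94 ± 0.23 with Mix (adjusted p = 0.0259). The vehicle ovaries spread widely for this gene but stayed above every treated ovary. Cox7a2 had a log2 fold change of -0.77 ± 0.20 (SE) with BPA (adjusted p = 0.0417) and of -0.90 ± 0.20 with Mix (adjusted p = 0.0186), and Cox7b had a log2 fold change of -0.50 ± 0.20 (SE) with BPA (adjusted p = 0.145) and of -0.83 ± 0.20 with Mix (adjusted p = 0.0222). Cox5b, the zinc-binding subunit, was at 692, 825 and 769 CPM in vehicle ovaries, 500.0, 534 and 523 CPM with BPA and 419, 627 and 529.6 CPM with Mix. Cox5b had a log2 fold change of -0.55 ± 0.16 (SE) with BPA (adjusted p = 0.0561) and of -0.54 ± 0.16 with Mix (adjusted p = 0.0536), so it did not pass although its treated libraries lay below the vehicle libraries. Cox8a, the widely expressed form of subunit 8, was at 439, 392 and 485 CPM in vehicle ovaries, 384, 413 and 433 CPM with BPA and 384, 486 and 372 CPM with Mix, with overlap. Cox6b2, the testis form of a subunit facing the intermembrane space, was at 14.8, 23.9 and 13.2 CPM in vehicle ovaries, 8.24, 7.96 and 7.76 CPM with BPA and 4.02, 12.9 and 7.18 CPM with Mix. Cox6b2 had a log2 fold change of -1.11 ± 0.39 (SE) with BPA (adjusted p = 0.105) and of -1.10 ± 0.39 with Mix (adjusted p = 0.0941) and so did not pass, although its groups did not overlap.

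In complex V, 5 of 15 members fell with BPA and 6 with Mix, with medians of -0.42 and -0.36. Atp5i, subunit e at the base of the membrane part where synthase dimers form, was at 656, 894 and 905 CPM in vehicle ovaries, 398, 443 and 399.6 CPM with BPA and 277, 447 and 366 CPM with Mix. Atp5i had a log2 fold change of -0.99 ± 0.19 (SE) with BPA (adjusted p = 0.0108) and of -1.17 ± 0.19 with Mix (adjusted p = 0.00444). Its highest treated value was under its lowest vehicle value. Atp5e, the epsilon subunit of the rotating central stalk, was at 802, 1119.6 and 1234 CPM in vehicle ovaries, 619.8, 696 and 651 CPM with BPA and 458, 631 and 574 CPM with Mix. Atp5e had a log2 fold change of -0.68 ± 0.18 (SE) with BPA (adjusted p = 0.0407) and of -0.92 ± 0.18 with Mix (adjusted p = 0.0104). The groups again did not overlap.

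Atp5g1, 1 of 3 genes that encode the same mature c-ring subunit, was at 1207, 1162 and 894 CPM in vehicle ovaries, 527, 476 and 504 CPM with BPA and 577, 868 and 648 CPM with Mix. Atp5g1 had a log2 fold change of -1.11 ± 0.18 (SE) with BPA (adjusted p = 0.00445) and of -0.64 ± 0.18 with Mix (adjusted p = 0.0402). Its BPA ovaries were the lowest and its Mix ovaries lay between them and the vehicle ovaries. The other c-ring genes did not pass: Atp5g2 was at 622, 657 and 677 CPM in vehicle ovaries, 542, 621 and 669 CPM with BPA and 626, 732 and 654 CPM with Mix, with overlap. Atp5g3 was at 1056, 1177 and 1406 CPM in vehicle ovaries, 911, 1066 and 958 CPM with BPA and 811, 1016 and 812 CPM with Mix. Atp5g3 had a log2 fold change of -0.31 ± 0.16 (SE) with BPA (adjusted p = 0.256) and of -0.46 ± 0.16 with Mix (adjusted p = 0.0848), and its Mix libraries lay below the vehicle libraries while its BPA libraries overlapped them. How reads shared by these near-identical transcripts were counted is not given in the sources used here. The core subunits Atp5a1 and Atp5b had log2 fold changes of -0.17 ± 0.13 and -0.12 ± 0.14 with BPA, and 0.12 ± 0.13 and -0.36 ± 0.15 with Mix, and neither passed the test. The remaining complex V members that fell were Atp5j2 and Atp5o with BPA, at -0.73 and -0.66, and Atp5j2, Atp5l and Atp5o with Mix, at -0.66, -0.87 and -0.75.

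**Figure D2:**
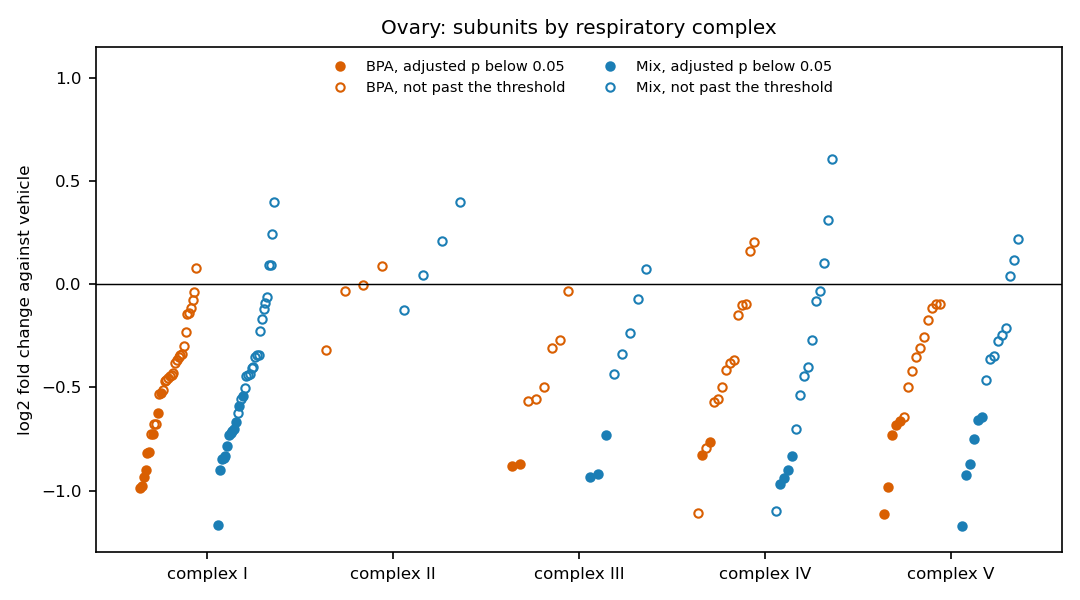
log2 fold change against vehicle (y axis) of each ovary member tested, by complex (x axis) and agent (colour); filled points passed an adjusted p of 0.05 and open points did not. The medians of complexes I, III, IV and V lie between -0.53 and -0.36, and complex II lies near 0.

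**Figure D3:**
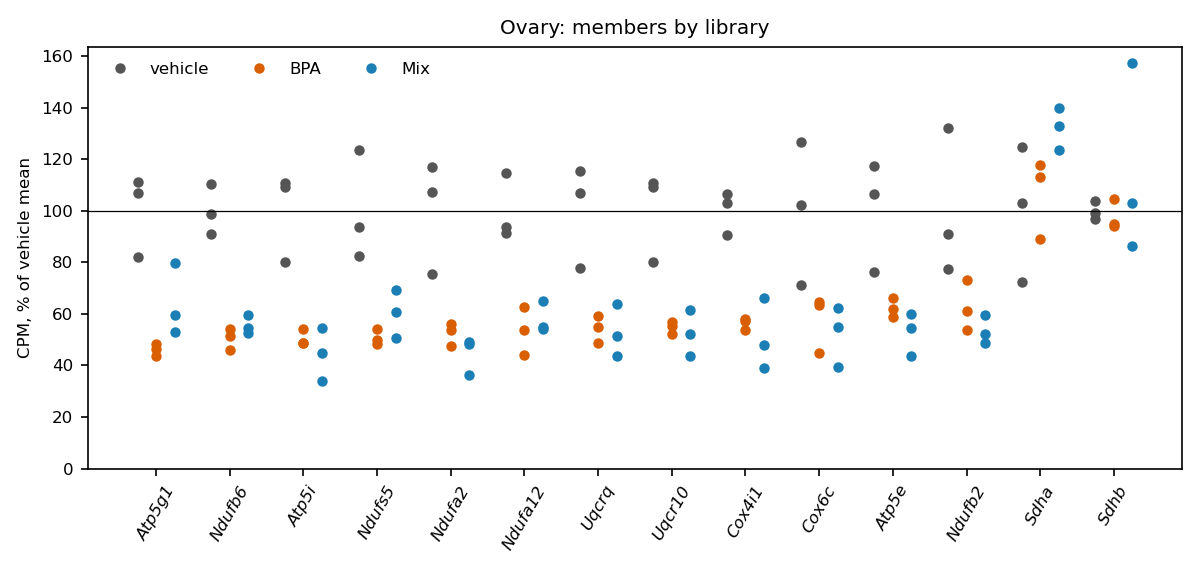
CPM of each ovary library as a percent of the gene's vehicle mean (y axis, starting at 0) for the members named for the ovary, with Sdha and Sdhb at the right for comparison (x axis); each point is a library, coloured by treatment. For the first 12 genes every treated library lies below every vehicle library, and for Sdha and Sdhb the groups overlap.

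BPA and Mix, which share BPA as a component at different doses but had the same total dose, were also compared directly in the ovary. Of the 77 members, 0 differed (against 0.212% of all genes tested). The 3 members with the smallest p were Atp5g1, Ndufa9 and Ndufb10. Atp5g1 was 0.47 ± 0.18 (SE) higher on the log2 scale with Mix (95% interval 0.09 to 0.85, adjusted p = 0.296). For Ndufa9 the interval of the log2 difference was 0.03 to 0.70. For Ndufb10 it was -0.63 to -0.02. Among the genes lower under both agents, the interval was -0.59 to 0.22 for Atp5i and -0.15 to 0.43 for Ndufb6, so the data do not show that the agents act alike on them.

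Other lists of mitochondrial genes in the ovary were counted the same way. Of 68 mitochondrial ribosomal proteins tested, 10 fell with BPA and 11 with Mix, with medians of -0.31 and -0.32. Of 38 assembly factors, 4 fell with BPA and 4 with Mix, with medians of -0.01 and 0.04. They included Uqcc2, needed to assemble complex III, at a log2 fold change of -1.23 with BPA and -1.37 with Mix, and Pet100, a complex IV chaperone, at -0.99 and -1.14. Of 12 tricarboxylic acid cycle genes, 1 rose and 2 fell with BPA, and 2 rose with Mix. Among 13 electron carriers and coenzyme Q genes, 1 rose under each agent, the coenzyme Q biosynthesis kinase Adck3. Among 10 biogenesis regulators, 0 passed with BPA and 1 with Mix, the nuclear receptor Esrra, at -0.49. Of 13 outer membrane and import genes 0 passed. Of 17 glycolysis genes, 1 rose and 2 fell with BPA, and 1 rose and 1 fell with Mix, with Ldha, lactate dehydrogenase A, at -1.13 and -1.44. Of 5 genes for uncoupling and synthase inhibition, 2 fell with BPA (Ucp2 and Ucp3) and 0 with Mix.

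Other features of the ovary libraries moved with treatment. Of 97 cytosolic ribosomal proteins, 8 fell with BPA and 45 with Mix, with medians of -0.39 and -0.69. Their summed level was 80597, 107029 and 120644 CPM with vehicle, 63958, 84678 and 84642 CPM with BPA and 51841, 74444 and 65479 CPM with Mix. The ribosomal RNA share of counts was 20.7, 29.4 and 23.7% with vehicle, 12.4, 18.5 and 19.1% with BPA and 18.7, 23.8 and 22.1% with Mix. When the model included that share, 0 members fell with BPA (against 0.488% of all genes in that fit) and 17 with Mix, so the BPA count did not hold. The member median with BPA in that fit was -0.20. Every BPA share lay below every vehicle share, so that fit cannot separate the share from BPA. The share of all genes that fell with Mix in that fit is not given here. The part of these features in the result was not tested beyond that.

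Markers of ovarian cell state also differed. The ovary list, of which 7 of 8 genes are in the table and none was at 0, summed to 1462 to 1851 CPM with vehicle, 1929 to 3404 CPM with BPA and 1882 to 2239.5 CPM with Mix. Of these 7 genes, Lhcgr, the receptor for luteinising hormone, was at 1.63 to 4.98 CPM with vehicle, 24.9 to 50.1 CPM with BPA and 20.8 to 57.3 CPM with Mix, and Cyp19a1, the aromatase of granulosa cells, was at 3.10 to 9.95, 17.7 to 29.4 and 19.8 to 48.3 CPM in that order. For both, the treated ranges lay above the vehicle range under either agent. Amh, a hormone of granulosa cells, was at 12.2 to 14.8, 34.1 to 41.8 and 12.3 to 16.8 CPM, and Inhba, an activin and inhibin subunit, at 161 to 310.3, 523 to 924 and 200.9 to 549 CPM, so that they lay above vehicle with BPA and overlapped it with Mix. Cyp11a1, which starts steroid synthesis, was at 339.8 to 427, 322 to 513 and 467 to 661 CPM, above vehicle with Mix alone. Inha, the inhibin alpha subunit, was at 800.1 to 1114, 957 to 1856 and 893 to 942 CPM and overlapped under either agent, and Fst, which binds activin, was at 51.7 to 73.8, 45.9 to 96.4 and 32.8 to 37.4 CPM, below vehicle with Mix. Cyp17a1, which makes androgens in theca cells and Leydig cells and is not of this list, was at 1.80 to 5.13, 80.4 to 229 and 124 to 265 CPM, above vehicle under either agent. The 8 testis germ cell markers summed to 0.816 to 700.2 CPM with vehicle, 0.866 to 59.0 with BPA and 2.39 to 32.9 with Mix, and the 7 liver markers to 20.2 to 480.4, 18.9 to 53.0 and 12.8 to 133 CPM, with at most 1 gene of either list at 0 over a group. The part of these cells in the subunit result was not tested, and the stage of the oestrous cycle is not in the labels.

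**Figure D4:**
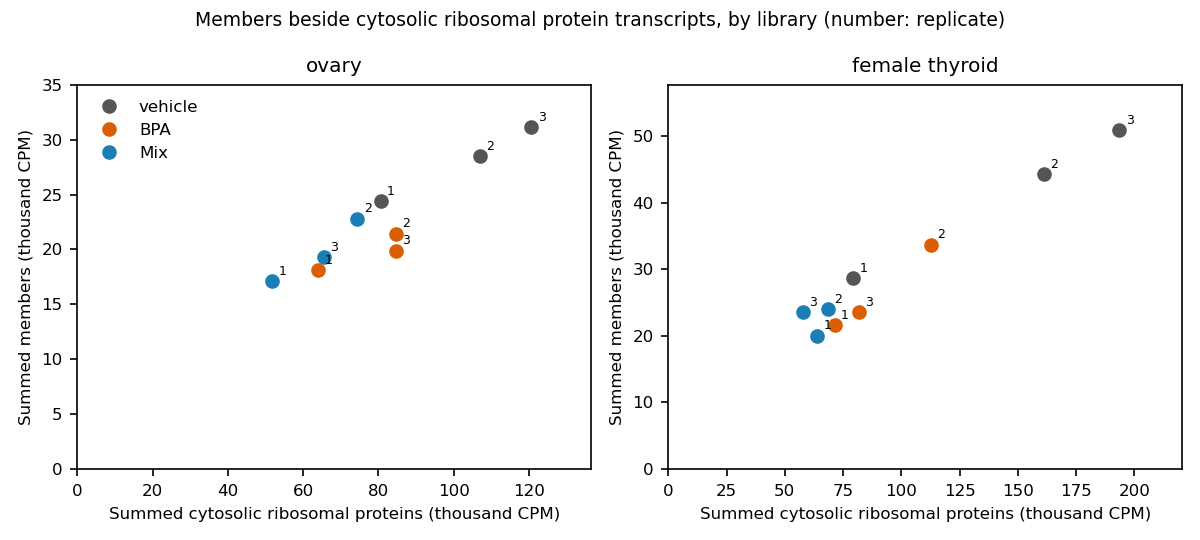
Summed CPM of members (y axis, in units of 1000 CPM) against summed CPM of 97 cytosolic ribosomal proteins (x axis, in units of 1000 CPM) in each library of ovary (left) and female thyroid (right), coloured by treatment and numbered by replicate. In female thyroid, vehicle replicate 1 lies near the treated libraries and the other vehicle libraries lie at the upper right.

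The ovary counts depended on single libraries. Leaving out 1 library at a time gave 5 to 26 members with BPA: 5 without BPA replicate 3, 6 without vehicle replicate 2, 8 without BPA replicate 2, and 11 without vehicle replicate 3 or BPA replicate 1. With Mix it gave 8 to 32: 8 without Mix replicate 1 or 3, 9 without vehicle replicate 2 and 15 without vehicle replicate 3. In those fits 6.49 to 14.3% of members fell with BPA, against 0.832 to 3.14% of all genes, and 10.4 to 19.5% with Mix, against 1.21 to 3.61%. The 5 members called with BPA in every such fit were Atp5g1, Ndufa12, Ndufb6, Ndufs5 and Ndufs8, and the 8 with Mix were Atp5e, Atp5i, Cox4i1, Ndufa2, Ndufb6, Ndufs8, Ndufv3 and Uqcr10. With libraries scaled to total counts only, the median of all genes moved to 0.30 with BPA and 0.18 with Mix, and 10 and 21 members fell, with 0 rising. The shares of all genes that fell under that scaling are not given here. Those counts alone therefore do not show an excess of members.

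In the female thyroid, 0 of 79 members passed against vehicle with BPA and 0 with Mix (against 0% and 0.00899% of all genes tested). The medians were nonetheless -0.50 and -0.65, against 0.03 and -0.03 over all genes tested. The summed level was 28673, 44296 and 50938 CPM with vehicle, 21556, 33696 and 23519 CPM with BPA and 20044, 24008 and 23548 CPM with Mix. Vehicle replicate 1 stood apart from the other vehicle libraries and overlapped the BPA range. Without it, 21 members fell and 1 rose with BPA (27.8% changed, against 9.82% of all genes in that fit), and 31 fell and 2 rose with Mix (41.8%, against 18.4%). DESeq2's Wald test with all libraries called 7 with BPA and 28 with Mix, all lower (8.86% and 35.4%, against 1.47% and 5.97% of all genes called lower by DESeq2).

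The members with the smallest p in the female thyroid included Cox6c, at 878, 2839 and 3746 CPM with vehicle, 466, 967 and 631 CPM with BPA and 474, 599 and 549 CPM with Mix. Cox6c had a log2 fold change of -1.85 ± 0.47 (SE) with BPA (adjusted p = 0.328) and -2.20 ± 0.48 with Mix (adjusted p = 0.0725). Vehicle replicate 1 lay within the BPA range. Ndufs5 was at 106, 223 and 281 CPM, 81.9, 107 and 81.9 CPM and 76.7, 66.0 and 70.4 CPM in the same order, with -1.52 ± 0.32 for Mix (adjusted p = 0.0725). Cox7b was at 763, 1267 and 1978 CPM, 471, 918 and 513 CPM and 414, 462 and 390.4 CPM, with -1.66 ± 0.37 for Mix (adjusted p = 0.0725). For Ndufs5 and Cox7b every Mix library lay below every vehicle library.

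Cox6b2 in the female thyroid was at 20.2, 25.01 and 6.03 CPM with vehicle, 0.55, 0.704 and 2.63 CPM with BPA and 2.99, 2.88 and 0.546 CPM with Mix (adjusted p = 0.328 with BPA). The 8 testis germ cell markers, none at 0, ran from 0.411 to 3824 CPM with vehicle, 8.31 to 391 CPM with BPA and 8.17 to 241 CPM with Mix. Cox6a2, the muscle form of subunit 6a, was at 19.5, 123 and 4.11 CPM, 2.20, 8.31 and 1.60 CPM and 0.448, 10.4 and 216 CPM. The skeletal muscle list, of which 8 of 9 genes are in the table, ran from 107 to 5632 CPM, 23.7 to 223 CPM and 7.47 to 8229 CPM. The follicle list, led by thyroglobulin, ran from 30174 to 52512, 49807 to 57730.0 and 54338 to 75127 CPM. Pth, of the C cell and parathyroid list, was at 38696 to 42551, 18889 to 35158 and 12088 to 37479 CPM. Every treated library of Pth lay below every vehicle library. Of the same list, Calca and Calcb overlapped and Casr lay above vehicle with Mix. Cidec, of the white fat list, was at 55.3 to 187, 34.0 to 45.8 and 32.3 to 54.4 CPM. Every treated library of Cidec lay below every vehicle library. Of the same list, Fabp4 was at 463 to 4733, 269 to 876 and 216 to 970 CPM, with overlap, and Adipoq, Plin1 and Lep also overlapped. Ribosomal RNA took 3.26, 0.983 and 0.66% of counts with vehicle, 7.41, 1.93 and 5.33% with BPA and 11.7, 16.5 and 23.7% with Mix, and cytosolic ribosomal proteins had medians of -0.62 with BPA and -1.12 with Mix. A model that held the ribosomal RNA share also called no member against vehicle with either agent. Each Mix share lay above all vehicle shares, so that fit cannot separate the share from Mix. The part of these features in the member values was not tested further.

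In the male thyroid 0 of 78 members passed in any comparison (against 0% of all genes tested). The member with the smallest p was Cox5a, a matrix-side subunit of complex IV, at 110.2, 157 and 77.2 CPM with vehicle, 239, 303 and 204 CPM with BPA and 85.7, 133 and 132 CPM with Mix. The BPA libraries lay above the others (adjusted p = 0.586 against vehicle). Against vehicle, Mix had the smallest p in complex II: Sdha was at 179.6, 170.5 and 229.7 CPM and 135, 125.8 and 140.0 CPM, and Sdhb was at 299.6, 242 and 302 CPM and 192, 189 and 189.7 CPM. Both sets of Mix values lay below the vehicle values, with an adjusted p of 0.922. Cox6b2 was at 2.29, 6.92 and 3.65 CPM with vehicle, 179, 0.581 and 1.41 CPM with BPA and 3.05, 2.58 and 3.30 CPM with Mix, and Cox8c was at 13.6, 0 and 0.108 CPM with BPA. BPA replicate 1 alone held the high value of both testis forms. The testis germ cell markers reached 34.0 to 737 CPM over the vehicle libraries, 10.1 to 17915 CPM over the BPA libraries and 10.8 to 22.9 CPM over the Mix libraries, and their part in these values was not tested.

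In the male kidney 0 of 78 members passed against vehicle with either agent (against 0.136% of all genes tested with BPA and 0.0273% with Mix). Between Mix and BPA, 2 of 78 passed, both higher with Mix (2.56%, against 2.57% of all genes tested that were higher and 2.93% that differed), which is near the share over all genes. Both are testis forms of complex IV subunits. Cox6b2 was at 4.95, 3.00 and 5.92 CPM with vehicle, 3.31, 0.983 and 1.62 CPM with BPA and 11.6, 8.62 and 11.6 CPM with Mix. Cox6b2 had a log2 difference between Mix and BPA of 2.45 ± 0.49 (SE, adjusted p = 0.022). All Mix kidneys lay above all BPA and vehicle kidneys.

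Cox8c was at 1.13, 0.601 and 1.35 CPM with vehicle, 0, 0.164 and 0.202 CPM with BPA and 2.32, 2.71 and 2.91 CPM with Mix. These levels rest on 31, 2 and 53 counts over each group, so the ratio of Mix to BPA was 26.2 with a 95% exact interval of 6.90 to 222 that covers counting error only (adjusted p = 0.0215). The Mix libraries were again the highest. The call for both genes was lost without BPA replicate 2, BPA replicate 3 or Mix replicate 3, and that for Cox8c also without vehicle replicate 3 or Mix replicate 2, while 4 members passed without Mix replicate 1 (5.13%, against 3.85% of all genes higher in that fit). The 8 testis germ cell markers, none at 0, moved with these genes, at 270.3 to 549 CPM with vehicle, 44.9 to 236 CPM with BPA and 994 to 1949 CPM with Mix. Among them Tnp1, a spermatid transition protein, was at 193 to 379, 31.8 to 182 and 695 to 1515 CPM. Their part in the result was not tested.

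Other members of the male kidney leaned lower with BPA, with 60 of 78 negative and a median of -0.25. The same values over all genes are not given here. Sdha was at 342, 311 and 362 CPM with vehicle, 189.8, 203.4 and 189 CPM with BPA and 206, 377 and 245 CPM with Mix. Sdha had a log2 fold change of -0.80 ± 0.21 (SE) with BPA (adjusted p = 0.0889). Atp5g1 was at 2361, 1919 and 2528 CPM, 1028, 1191 and 1147 CPM and 1151, 2740.2 and 2030.2 CPM (adjusted p = 0.0941 with BPA). For both genes the BPA libraries lay below the vehicle libraries, and without Mix replicate 1 or Mix replicate 2 the count of members called lower with BPA was 2 (2.56%, against 3.92% and 2.43% of all genes in those fits). Ribosomal RNA took 3.50, 1.71 and 2.53% of the vehicle counts, 37.2, 16.4 and 36.9% with BPA and 20.2, 1.42 and 6.04% with Mix. A model that held this share called no member against vehicle. Each BPA share lay above all vehicle shares, so that fit cannot separate the share from BPA. The fibroblast markers Col1a1, Col1a2, Col3a1, Dcn and Pdgfra lay above vehicle with BPA. Dcn was at 124 to 144 CPM with vehicle and 455 to 517 CPM with BPA. Of the kidney list, Slc34a1 was at 2171 to 2683 and 935 to 1039 CPM. Slc12a3 was also lower, Kap was higher and the other listed genes overlapped. The part of these features in the member values was not tested further.

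In the female kidney 0 of 77 members passed in any comparison (against 0% of all genes tested). With BPA 69 of 77 were positive, with a median of 0.33 against -0.02 over all genes tested. Cox5b, a zinc-binding subunit of complex IV, was at 754 and 608 CPM with vehicle, 1298 and 1529.7 CPM with BPA and 1258, 1205 and 1334 CPM with Mix. Cox5b had a log2 fold change of 1.05 ± 0.21 (SE, adjusted p = 0.151) with BPA. Treated libraries were all above both vehicle libraries. Without vehicle replicate 1, 12 members were called higher with BPA (15.6%, against 4.98% of all genes in that fit) and 2 with Mix (2.60%, against 2.43%). That fit has 1 vehicle library, which is assumed to vary as the libraries of the other groups do. When the model included the ribosomal RNA share, 14 were higher with BPA (18.2%, against 6.34%) and 2 with Mix (2.60%, against 3.11%). That share was 37.1 and 19.2% with vehicle, 17.2 and 20.9% with BPA and 20.6, 17.5 and 17.8% with Mix. All 97 cytosolic ribosomal proteins were positive with BPA, with a median of 0.60 and 0 past the threshold.

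The sexes were compared in joint fits of each organ. Among vehicle rats, 3 of 78 kidney members were lower in females and 0 were higher (3.85%, against 4.08% of all genes lower and 6.13% different). They were Atp5g1, at 2315, 1883 and 2458 CPM in males and 1067 and 790.3 CPM in females, Cox5b and Ndufv3, a small complex I subunit of the NADH-binding module. The female-to-male log2 differences were -1.26 ± 0.29 (SE), -0.88 ± 0.24 and -0.60 ± 0.17 (adjusted p = 0.0187, 0.0353 and 0.0464). With the replicate number as a block, Cox5b and Ndufv3 did not pass (adjusted p = 0.0625 and 0.0709). The BPA effect differed between the sexes for 4 of 78 members, each more positive in females (5.13%, against 2.57% of all genes more positive and 4.73% different), and the Mix effect differed for 0 (0.00858%). The vehicle libraries of the sex comparison also enter this difference. Atp5g1 with BPA was at 997, 1152 and 1109.7 CPM in males and 1664 and 1904 CPM in females, so BPA males lay below vehicle males and BPA females above vehicle females. Cox5b with BPA was at 889, 855 and 1193 CPM in males and 1341 and 1567 CPM in females, against 1394, 1186 and 1325 and 781 and 629 CPM with vehicle. Leaving out 1 library at a time gave 0 to 20 members for the difference in BPA effect, with 0 without male vehicle replicate 1, female vehicle replicate 2 or female BPA replicate 2. The count was 1 or 2 without male vehicle replicate 2 or 3, male BPA replicate 1 or 2, female BPA replicate 1, or female Mix replicate 1 or 3, and it was 8 without female vehicle replicate 1, 15 without male Mix replicate 2 and 20 without male Mix replicate 1 (10.3%, 19.2% and 25.6%, against 5.94%, 4.34% and 5.44% of all genes more positive in females). The vehicle count ranged from 0 to 5, with 0 without male vehicle replicate 1 or 3, 1 without male vehicle replicate 2 or female vehicle replicate 2, and 5 without male Mix replicate 1 or 2.

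In liver, 0 of 75 members differed between vehicle sexes (against 4.23% of all genes), and 0 differed in the BPA or Mix effect (0.209% and 0.189%). In thyroid 0 of 79 differed in any of these (against 0% of all genes), though without female vehicle replicate 1 the count between vehicle sexes was 13, all higher in females (16.2%, against 2.06% of all genes).

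In testis 0 of 77 members passed against vehicle (against 0% of all genes), and 0 between Mix and BPA (0.775%). With BPA 67 of 77 were positive with a median of 0.20, and the summed level was 12159, 12285 and 12155 CPM with vehicle, 13956, 13793 and 14079 CPM with BPA and 13302, 11759 and 12029 CPM with Mix. All BPA testes lay above all vehicle testes. The lean over all genes tested is not given here. Summed cytosolic ribosomal proteins also lay above vehicle with BPA, at 21792, 20839 and 20708 CPM with vehicle and 23385, 26861 and 28375 CPM with BPA. With Mix they were at 23720, 19740 and 20435 CPM and overlapped vehicle. Their part in the member values was not tested. Ndufs8 was at 41.0, 40.1 and 44.7 CPM with vehicle and 60.6, 60.6 and 58.1 CPM with BPA, with a log2 fold change of 0.51 ± 0.13 (SE, adjusted p = 0.245). Cox8c, at 87.0, 76.1 and 62.6 CPM with vehicle and 89.8, 208 and 209.6 CPM with Mix, had the smallest p for Mix (adjusted p = 0.682), and its Mix libraries lay above the vehicle libraries. Without BPA replicate 1, 10 members rose and 2 fell with BPA (15.6%, against 3.72% of all genes in that fit), and 16 differed between Mix and BPA (20.8%, against 8.81%). Without Mix replicate 1, 5 differed between Mix and BPA (6.49%, against 3.81%).

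In liver 0 of 75 male and 0 of 74 female members passed in any treatment comparison. The shares over all genes were 0.228% with BPA and 0.321% with Mix in males, and 0.419% and 0.0523% in females. Between Mix and BPA they were 0.0103% in males and 0% in females. The male medians were 0.10 with BPA and 0.02 with Mix. In female liver with BPA the summed members were at 106.6% of the vehicle mean and overlapped vehicle. On total counts without ribosomal RNA they were at 119.1% and lay above vehicle. In males Uqcrfs1, the Rieske iron-sulfur protein of complex III, was at 151, 148 and 99.4 CPM with vehicle and 93.3, 73.0 and 84.1 CPM with BPA (adjusted p = 0.569). In females Cox7a2l, a supercomplex assembly factor, was at 95.8, 93.2 and 94.1 CPM with vehicle and 127.9, 125 and 129 CPM with BPA (adjusted p = 0.318). Both pairs of groups did not overlap, and neither passed the test.

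The members also differed between organs of vehicle rats, where each organ was compared with the mean log level of the other 3 organs of the same sex. The same animals gave several organs. In male kidney 62 of 78 members were higher and 2 lower (82.1% changed, against 55.9% of all genes), with a median of 0.84 against -0.04 over all genes tested. In testis 5 were higher and 65 lower (89.7%, against 80.9%), with a median of -1.25 against -0.07. All 15 complex V members and all 4 complex II members were higher in male kidney and lower in testis. In male thyroid 17 were higher and 16 lower (42.3%, against 62.8%), and in male liver 37 were higher and 11 lower (61.5%, against 65.7%).

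The split in liver and thyroid depended on the scaling. With total counts only, 3 members were higher and 51 lower in male liver, and 41 higher and 7 lower in male thyroid, while the median of all genes moved from -0.21 to -1.15 in liver and from -0.11 to 0.37 in thyroid. The kidney median of all genes moved from -0.04 to 0.41. Kidney had 72 higher and 1 lower and testis 5 higher and 65 lower under that scaling. The shares of all genes called under that scaling are not given here, so its counts do not show an excess of members.

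The testis forms set the testis apart. Cox6b2 was at 489, 441 and 441 CPM in testis, 4.27, 2.66 and 5.19 CPM in male kidney, 1.80, 5.49 and 2.90 CPM in thyroid and 0.651, 2.02 and 0.218 CPM in liver (adjusted p = 1.83e-11). Cox8c was at 86.5, 79.3 and 64.2 CPM in testis and at no more than 1.18 CPM in each other male library. Its partner Cox8a ran the other way, at 38.9, 48.6 and 47.7 CPM in testis against 1809, 1537 and 1552 CPM in kidney, 878, 919.9 and 863 CPM in thyroid and 689, 673 and 505 CPM in liver. Within these data no testis library reached the lowest Cox8a level of another male organ.

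Other complex IV subunits were low in testis as well. Cox7b was at 14.8, 17.6 and 14.0 CPM in testis against 501 ± 132, 668 ± 62.4 and 644 ± 115 CPM (mean ± SD, n = 3) in liver, kidney and thyroid. Ndufa4, named for complex I but a subunit of complex IV, was at 63.4 ± 1.88 CPM (mean ± SD, n = 3) in testis and 1060.3 ± 13.6 CPM in kidney. Ndufb3 and Ndufb11, membrane-arm subunits of complex I, had log2 differences of -3.04 ± 0.25 (SE) and -2.93 ± 0.19 in testis.

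A few members were higher in testis. Uqcrfs1 was at 595, 783 and 721 CPM in testis, above 387, 456 and 292 CPM in kidney, 272, 272 and 167 CPM in liver and 159, 189 and 214 CPM in thyroid, with a log2 difference of 1.45 ± 0.18 (SE). Ndufa12 had a log2 difference of 1.34 ± 0.12 (SE) and Atp5s, a factor related to the synthase, one of 1.76 ± 0.13. For these 3 genes the testis libraries lay above those of every other male organ.

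Male kidney held the highest levels of many members. Cox8a, with the values above, was 2.48 ± 0.15 (SE) higher on the log2 scale. The membrane anchor Sdhc was at 778, 714 and 668 CPM in kidney against 344 ± 20.8 CPM (mean ± SD, n = 3) in liver, and differed by 2.00 ± 0.13 (SE). Atp5g1 was at 2037, 1700.3 and 2215 CPM in male kidney, 1193, 1234 and 811 CPM in liver, 354, 439 and 357 CPM in thyroid and 298, 268 and 270.3 CPM in testis. The kidney values lay above those of the other 3 organs.

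In female kidney 8 of 80 were higher and 0 lower (10.0%, against 20.2% of all genes), in liver 10 higher and 8 lower (22.5%, against 34.7%), in thyroid 23 higher and 11 lower (42.5%, against 39.2%) and in ovary 3 higher and 14 lower (21.2%, against 25.7%). With total counts only the splits were 17 and 0 in kidney, 0 and 63 in liver, 40 and 1 in thyroid and 5 and 5 in ovary. The median of all genes was then 0.30, -1.24, 0.51 and 0.44 in that order. Single libraries also moved these counts: kidney had 2 and 4 members without its replicate 1 or 2 and 16 without thyroid replicate 1, and liver had 9 and 7 without its replicate 1 or 2. Ovary had 9, 7 and 10 without its replicate 1, 2 or 3, 11 without liver replicate 1 or 2 and 30 without thyroid replicate 1, and thyroid had 21 and 22 without its replicate 2 or 3. The shares of all genes called in those fits and with total counts only are not given here. Those counts therefore do not show that members differed more than other genes. Sdhc in female kidney was at 579 and 452 CPM, above 180.5, 163 and 199 CPM in ovary, and differed from the other organs by 1.08 ± 0.19 (SE, log2). Uqcrc1 passed in female kidney (adjusted p = 0.0288) but not with the animal as a block (adjusted p = 0.0795). Cox4i2 was highest in ovary, at 8.66, 16.9 and 13.4 CPM against 4.02, 6.55 and 10.5 CPM in thyroid and 0.399, 0.238 and 0.462 CPM in liver, and the ovary and thyroid ranges overlapped. Cox8a was lowest in ovary, at 332, 289.9 and 362 CPM.

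Among vehicle rats of both sexes, Cox8b and Ndufa1 were higher in every thyroid library than in any library of another organ of that sex. Cox8b was at 36.0, 55.1 and 46.6 CPM in male and 40.0, 159 and 137 CPM in female thyroid, and at no more than 2.32 CPM in any other vehicle organ. Cox6a2 was at 0.423, 17.1 and 4.21 CPM in male and 14.4, 89.7 and 3.04 CPM in female thyroid, a wide spread between rats, and it was not tested in male organs, where the lowest thyroid value lay inside the testis range. Markers of muscle and brown fat were present beside them: the skeletal muscle list summed to 15.5 to 404 CPM in male and 107 to 5632 CPM in female vehicle thyroid, and the brown fat list to 67.3 to 91.4 and 88.9 to 216 CPM, with 0 genes of either list at 0. Ucp1, which defines brown fat, was at 36.0 to 44.5 CPM in males and 28.6 to 142 CPM in females. Their part in the thyroid levels was not tested.

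Ndufa1, a membrane-arm subunit needed for complex I assembly, was at 939.8, 981 and 1022 CPM in male thyroid and 919.8, 1867 and 2382 CPM in female thyroid. In kidney it was at 501, 589 and 431 CPM in males and 449 and 401 CPM in females. The log2 difference of thyroid from the other organs was 2.05 ± 0.15 (SE) in males and 2.35 ± 0.29 in females, and thyroid lay above every other organ in both sexes. Its lower level in female liver and ovary passed (adjusted p = 0.0402 and 0.0353) but not with the animal as a block (0.0917 and 0.0552). Cox6c-ps1, a near copy of Cox6c that was at no more than 1.32 CPM in any vehicle library, also passed in female thyroid (adjusted p = 0.0281) but not with the block (0.0718).

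**Figure D5:**
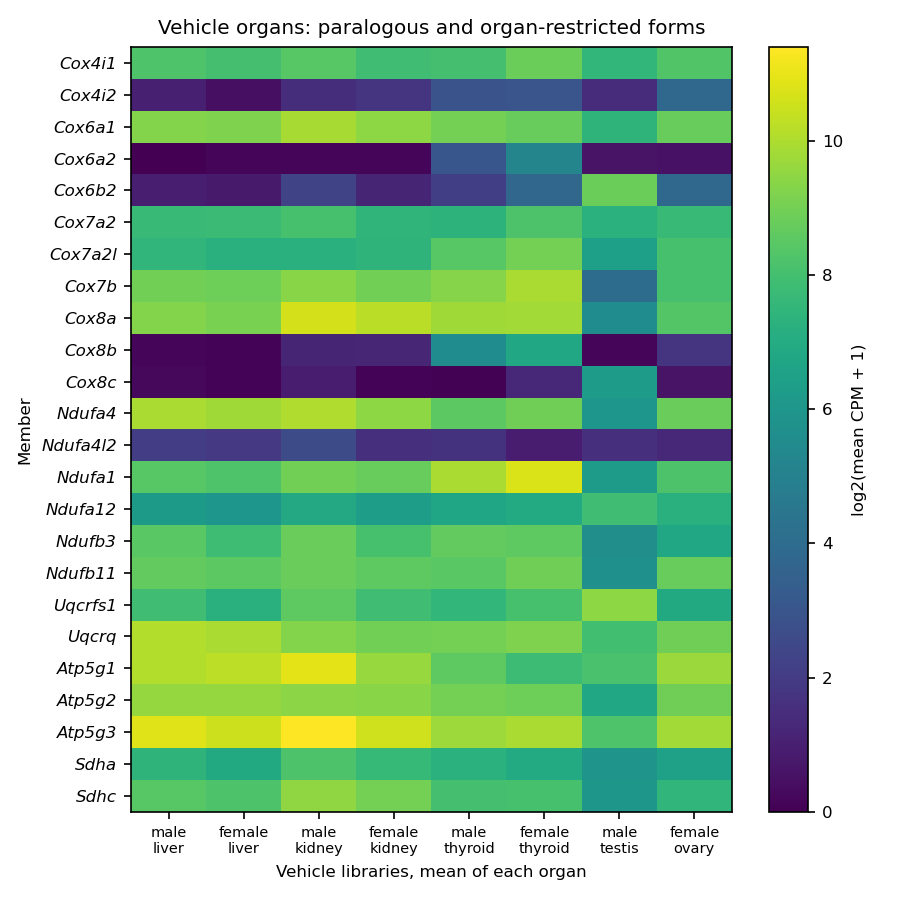
Mean level of 24 members (rows, log2 of mean CPM + 1, colour scale) in the vehicle libraries of each organ and sex (columns), chosen as paralogous forms or as members named for an organ. Cox6b2 and Cox8c are brightest in testis, Cox8b and Cox6a2 in thyroid, and Cox8a and Cox7b are darkest in testis.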

How the data were processed

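The labels' protocols give TRIzol extraction and a QuantSeq 3′ mRNA kit. The submitters' processing notes name edgeR, bedtools, Bowtie2 and FastQC without versions, and rn6 as the genome. The table that the authors deposited holds unnormalized counts, which were checked to be whole numbers. Handling of strand and of reads with several alignments is not given in the sources used here, so near-identical pairs (the Atp5g genes, Ndufa10 and Ndufa10l1, Cox6c and Cox6c-ps1) are uncertain.

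Each organ and sex was fitted over all 3 treatments with edgeR 4.0.16 in R 4.3.3 (filterByExpr, TMM, quasi-likelihood test), vehicle organs of each sex in separate fits, and both sexes of an organ jointly. Benjamini-Hochberg adjustment ran over all genes of a fit, with a threshold of 0.05. The standard error is the log2 fold change divided by the root of F. DESeq2 1.42.0, other scalings, no filter, a replicate block, the ribosomal RNA share and leaving out each library were tried as alternatives. The test was tested on simulated counts.

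Named by rule were up to 8 falling and 8 rising members per treatment comparison with the largest changes among those that passed, or the 3 with the smallest p, up to 6 each way per organ, up to 5 per sex comparison, the paralogous forms and the core subunits. Other members named with values beside them were chosen after the values were seen. The members and lists were chosen with earlier results of these data known. Replicate numbers across treatments belong to different rats, and same-numbered libraries correlated at a median of -0.07 to 0.11 in their deviations. The highest median was in male kidney, where 5 of 9 same-numbered pairs exceeded 0.1 and other pairs had a median of -0.06. Whether the numbers mark a shared factor was not tested. Across organs the sample codes recur, so the animal was used as a block there. No replicate pair was a near duplicate.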

Additional observations from a re-analysis of the deposited data

Results flagged for a closer look

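For 4 members the BPA effect on the kidney differed between the sexes in a test of that difference (edgeR quasi-likelihood interaction term). The female effect minus the male effect, on the log2 scale, was 1.97 ± 0.40 (SE) for Atp5g1 (adjusted p = 0.0184) and 1.45 ± 0.33 for Cox5b (adjusted p = 0.0261). It was 1.02 ± 0.27 for Ndufa5 (adjusted p = 0.0437), an accessory subunit of the matrix arm, and 0.89 ± 0.24 for Ndufv3 (adjusted p = 0.0418). With the replicate number as a block, Ndufa5 and Ndufv3 did not pass (adjusted p = 0.0588 for each). Ndufa5 was at 352, 346 and 313 CPM in vehicle males, 274, 279 and 275 CPM in BPA males, 283 and 212 CPM in vehicle females and 376 and 442 CPM in BPA females. The share of ribosomal RNA was 3.50, 1.71 and 2.53% in vehicle males and 37.2, 16.4 and 36.9% in BPA males, higher in every BPA male. It was 37.1 and 19.2% in vehicle females and 17.2 and 20.9% in BPA females, which overlapped. The part of this share in these differences was not tested. Slc34a1, of the kidney list, was at 2171 to 2683 CPM in vehicle males and 935 to 1039 CPM in BPA males. In females it was at 483 to 1320 CPM with vehicle and 1356 to 1410 CPM with BPA. Lrp2, Umod, Slc12a1 and Aqp2 were instead lower in BPA females than in vehicle females. The part of these markers was not tested either.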

How the results depend on the processing

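Counts of members called are given here where an alternative moved them by more than 1.5 times. Shares of all genes called in the same fit are given only where stated above. Without such a share, a count does not show that members moved more than other genes. With DESeq2 the counts were 6 (BPA) and 2 (Mix) in female kidney, 7 and 28 in female thyroid, 2 (BPA) and 5 (Mix against BPA) in male kidney, 1 (Mix against BPA) in male thyroid, 1 (BPA) and 3 (Mix against BPA) in testis and 32 (BPA) in ovary. For differences between the sexes DESeq2 gave 21 (BPA effect) and 8 (vehicle) in kidney and 11 (BPA effect), 1 (Mix effect) and 3 (vehicle) in thyroid. For vehicle organs it gave 16 in female kidney and 31 in ovary. With total counts only they were 14 (BPA effect) and 6 (vehicle) for the kidney sex differences, 5 (BPA) in male kidney, 10 (BPA) in ovary and, for vehicle organs, 17 in female kidney, 63 in female liver and 10 in ovary. Without the low-count filter they were 2 (BPA) and 1 (Mix) in female kidney, 1 (BPA) in female liver and 2 (Mix against BPA) in testis. When the model included the ribosomal RNA share they were 14 (BPA) and 2 (Mix) in female kidney, 1 (Mix against BPA) in male kidney, 0 (BPA) in ovary and 9 (Mix against BPA) in testis. With a replicate block, the kidney sex differences gave 2 (BPA effect) and 1 (vehicle), and no other count moved that far. The numbers belong to different rats across treatments and sexes. In the joint kidney fit 9 of 36 same-numbered pairs correlated above 0.1, with a median of 0.02 over all 36. Whether the numbers mark a shared factor was not tested.

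Leaving out 1 library at a time gave 0 to 12 (BPA) and 0 to 2 (Mix) in female kidney, 0 to 22 and 0 to 33 in female thyroid, 0 to 2 (BPA) and 0 to 4 (Mix against BPA) in male kidney, 5 to 26 and 8 to 32 in ovary, and 0 to 12 (BPA) and 0 to 16 (Mix against BPA) in testis. The sex differences ranged from 0 to 20 (BPA effect) and 0 to 5 (vehicle) in kidney and from 0 to 16 (BPA effect), 0 to 5 (Mix effect) and 0 to 13 (vehicle) in thyroid, where female vehicle replicate 1 made each upper value. Vehicle organs ranged from 2 to 16 in female kidney, 7 to 26 in female liver, 7 to 30 in ovary and 21 to 38 in female thyroid. Where this left 1 library in a female kidney group, it was assumed to vary as those of the other groups do. The cause of these moves was not tested, beyond the smaller number of libraries.

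Signs turned in 8 results. Cox6a2 in female thyroid, Mix against BPA, was -4.33 when the model included the ribosomal RNA share, and Uqcrq, Ndufa9 and Ndufa4 in female vehicle liver were -0.12, -0.28 and -0.35 with total counts only. On total counts without ribosomal RNA, the summed members crossed 100% of vehicle in male liver with BPA (96.01%, from 104.8% in the report's scaling) and Mix (96.3%, from 102.6%), in female liver with Mix (101%, from 93.9%) and in testis with Mix (99.8%, from 101.3%), each of which overlapped vehicle. Under the same change of scaling, female liver with BPA went from 106.6% with overlap to 119.1%, with every BPA library above every vehicle library. Male kidney with BPA went from 82.9%, with every BPA library below vehicle, to 88.8% with overlap. Female kidney with BPA went from 133.2% to 116.2% and stayed above vehicle. The cause was not tested.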
